A study of Mus musculus with 4 samples.

Results

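The switch on the pyruvate dehydrogenase complex was followed through 10 genes of 27179 in the count files of mouse liver: the kinases Pdk1, Pdk2, Pdk3 and Pdk4, the phosphatases Pdp1 and Pdp2, the subunits Pdha1 and Dlat of the complex, and Mpc1 and Mpc2, which form the mitochondrial pyruvate carrier. The genes were found by symbol through their Entrez identifiers, and all 10 had enough counts to be tested. They were chosen by a proposal that already knew how these genes stood in fasted against non-fasted livers, so their values below are a description and carry no p-value. RNA-seq was done on total liver RNA of male wild-type C57BL/6 mice (C57BL/6J in the protocol), which were matched in age, with no age given. The fasted group (2 libraries) had no food overnight but free access to water, and the non-fasted group (2 libraries) had food and water at all times. Sample titles gave these groups, whereas the treatment field of the labels reads fasted for all 4 libraries. Which mouse gave which library is not stated, and p-values therefore reflect only how far libraries vary, which may be technical variation.

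The complex turns pyruvate into acetyl-CoA in the mitochondrion and thereby commits carbohydrate carbon to oxidation or fat synthesis. Pyruvate dehydrogenase kinases phosphorylate its E1 alpha subunit and switch the complex off, and the phosphatases remove the phosphate and switch it on again. Pdk4 is a textbook fasting gene in liver, heart and skeletal muscle, driven by PPAR alpha, FOXO transcription factors and the glucocorticoid receptor and restrained by insulin, so that pyruvate is spared for gluconeogenesis while fat is burnt.

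The 2 groups of libraries stood apart beyond the diet. Total counts were 13528015 and 13541405 in fasted and 36943535 and 36975921 in non-fasted libraries. A list of 14 trophoblast genes, which mark cells of the placenta, made up 5.71% (Wilson 95% interval 5.70 to 5.72%) of one non-fasted library and 5.75% (5.75 to 5.76%) of the other, with all 14 detected. In the fasted libraries the same list held 4 and 6 counts in all, with 12 and 10 of the 14 genes at 0. Xist, which coats the silenced X chromosome in female cells, had 2 and 1 counts in fasted and 25772 and 26316 in non-fasted libraries, although all 4 are labelled male. The 15 hepatocyte markers, among them albumin and Cps1, took 14.1% of the counts in each fasted library, and 5.78% and 5.74% in the non-fasted libraries. Muscle genes, which mark the tissues richest in Pdk4, stood at 2.51 and 3.18 CPM (counts scaled to the library total) in fasted and 2.38 and 2.63 CPM in non-fasted libraries, summed over a list of 7. Its members did not move together: Ckm had 6 and 9 raw counts in fasted and 0 in both non-fasted libraries, and Myh4 had 9 and 13 against 2 and 3. Mb and Myh6, which heart muscle uses, went the other way, with 2 and 2 against 35 and 35 raw counts and 0 and 0 against 28 and 19. By contrast, 5 decidual genes summed to 25.4 and 24.5 CPM in fasted and 6628 and 6641 CPM in non-fasted libraries, of which Gpx3 and Prl8a2 held most, while Bmp2 was lower in the non-fasted libraries. In bulk RNA, fewer cells of a type and less RNA per cell cannot be told apart, and here the diet group and the trophoblast genes cannot be told apart either. For the 10 genes, each fold change scaled by the median of ratios over all genes is therefore set beside one scaled to the hepatocyte markers, and ratios between genes within a library are given as well, which no scaling between libraries can move. Scaled to themselves, the 15 hepatocyte markers ran from -0.65 to 0.49 on the log2 scale, with 7 called higher and 7 lower. A value inside that range on the hepatocyte scale is therefore not told apart from the spread of the markers, even where it was called.

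The promoters of Pdk4 and Pdk2 are shown because these kinases moved apart, with Pdk4 lower against Pdk2 in both fasted libraries. Both stretches are 200 bases that end 50 bases before the start given by RefSeq (build GRCm38.p6, minus strand), written 5′ to 3′ with each CpG in capitals. That of Pdk4 lies at chr6:5496329-5496528 and holds 5 CpG. That of Pdk2 belongs to the first of its 2 starts, lies at chr11:95041422-95041621 and holds 16. The same stretch before the second start of Pdk2, at chr11:95040926-95041125, holds 9 and is not printed.
Pdk4: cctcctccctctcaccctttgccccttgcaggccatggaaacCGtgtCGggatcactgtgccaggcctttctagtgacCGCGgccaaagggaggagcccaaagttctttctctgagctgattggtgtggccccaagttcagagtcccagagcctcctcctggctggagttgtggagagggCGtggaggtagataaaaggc
Pdk2: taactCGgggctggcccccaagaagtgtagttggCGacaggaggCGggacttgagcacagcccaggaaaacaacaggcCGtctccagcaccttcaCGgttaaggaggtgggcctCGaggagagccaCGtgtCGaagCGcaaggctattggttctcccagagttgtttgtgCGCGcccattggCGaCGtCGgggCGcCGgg
In the 250 bases before the start, Pdk4 had 6 CpG, which is also the median of 32851 mouse promoters. The 12 annotated starts, which cover 9 of the 10 genes, had a median of 16.5 CpG, and 1 start, the second of Pdk1 with 2 CpG, had fewer than Pdk4. The highest values were 32 for Mpc1 and 29 for Pdk3. Pdp1 had no entry.

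For the factors known to act on Pdk4 and for the E-box, 4 short motifs were searched on both strands of the same 250 bases. The nuclear receptor core motif AGGTCA was found 244 bases before the second start of Mpc1, and it occurs in 14.0% of all promoters. The glucocorticoid receptor core motif AGAACA was found 153 and 138 bases before the second start of Pdk1, and it occurs in 16.1% of promoters. The E-box CACGTG was found 126 bases before the first start of Pdk2 and 219 bases before that of Pdp2, against 6.02% of promoters. The forkhead core GTAAACA, present in 3.17% of promoters, was found in none of the 12 starts. Pdk4 held none of the 4 motifs in this window, which says nothing of sites elsewhere.

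Among the kinases, Pdk4 and Pdk3 were lower in the fasted libraries, and Pdk1 and Pdk2 were higher except on the hepatocyte scale. Normalized counts of Pdk4 (raw counts over the size factor of each library) were 403 and 369 in fasted and 680 and 687 in non-fasted libraries, from 205, 187, 1339 and 1351 raw counts. Both fasted libraries lay below both non-fasted libraries. The share of all genes whose groups separate in this way was not counted. Of all 15470 genes tested, 37.2% were called higher and 45.0% lower, so nothing is read from separation alone, here or below. The means were 386 ± 24.0 and 683 ± 4.66 (SD, n = 2 each), a log2 fold change of -0.82 with a standard error of 0.059. Scaled to the hepatocyte markers, the difference of Pdk4 was -2.61 on the log2 scale, and with total counts alone it was -1.33, so the fasted libraries were lower under each of the 3 scalings. The trophoblast genes, high in the libraries in which Pdk4 was high, moved with this difference, and their part in it was not tested.

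Pdk2, the kinase found in most tissues, had 1847 and 1716 normalized counts in fasted and 740 and 735 in non-fasted libraries. The groups did not overlap, with the fasted libraries higher by 1.27 on the log2 scale (standard error 0.043). This order turned round with the hepatocyte markers as the scale, where Pdk2 stood at -0.51, inside the range of the markers themselves. Pdk1, the kinase known as a target of hypoxia signalling, had 1479 and 1581 normalized counts in fasted and 872 and 958 in non-fasted libraries. Its fasted libraries were the higher ones by 0.74 on the log2 scale (standard error 0.059), and lower by the hepatocyte scale, at -1.04. Pdk3, the kinase best known from testis, was close to the limit of detection in the fasted libraries, with 5 and 4 raw counts against 242 and 214 in the non-fasted libraries. In normalized counts these were 9.82 and 7.89 against 123 and 109, a log2 fold change of -3.69 (standard error 0.305), and -5.45 on the hepatocyte scale. Its lower level in the fasted libraries went with the list of trophoblast genes, and the part of that RNA in the difference was not tested.

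**Figure D1:**
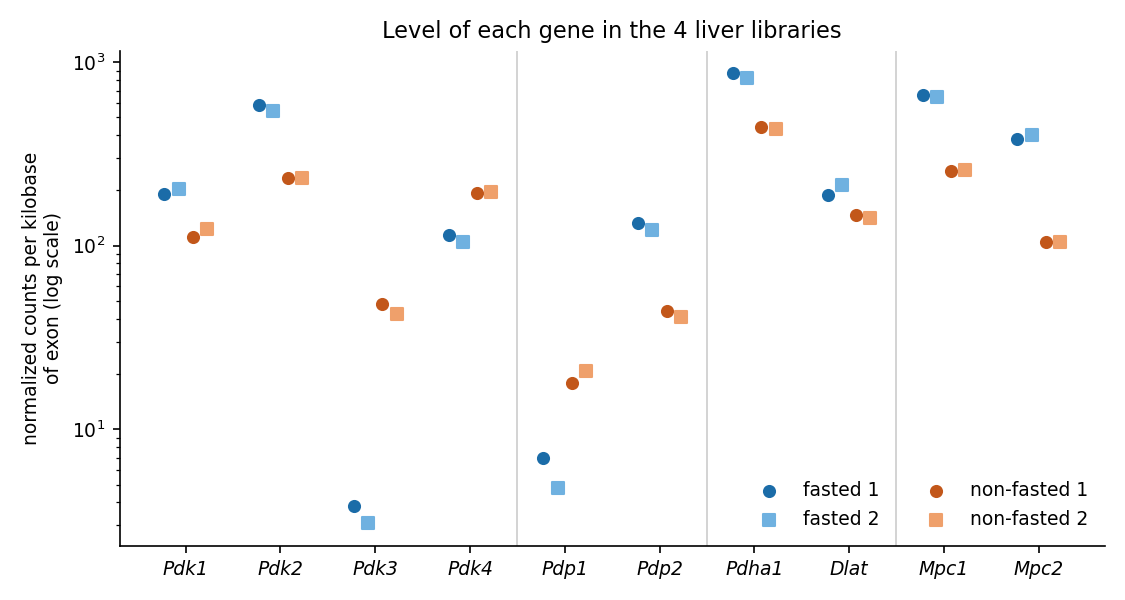
Normalized counts per kilobase of exon on a log axis for the 10 genes, with 1 point per library (circles replicate 1, squares replicate 2, blue fasted, orange non-fasted). Pdk3, Pdk4 and Pdp1 sit lower in both fasted libraries than in both non-fasted ones, and the other 7 genes sit higher. The share of all genes that separate in this way was not counted.

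The make-up of the kinase transcripts differed between the groups. Divided by exon length, Pdk4 made up 12.6 ± 0.389% of the kinase transcripts in fasted and 33.0 ± 0.0084% in non-fasted libraries (mean ± SD, n = 2 each). Pdk2 took the larger share in both groups, with 64.5 ± 1.33% in fasted and 39.5 ± 0.451% in non-fasted libraries. The share of Pdk1 was 22.6 ± 1.77% and 19.9 ± 1.18%, a difference close to its spread, and that of Pdk3 was 0.395 ± 0.049% and 7.66 ± 0.715%. As a share of raw kinase counts, Pdk4 had 10.8% and 10.04% in the fasted libraries (Wilson 95% intervals 9.46 to 12.2% and 8.75 to 11.5%). In the non-fasted libraries it had 28.2% and 27.6% (26.9 to 29.5% and 26.4 to 28.9%). These intervals cover counting error only, and those of the 2 groups do not meet.

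**Figure D2:**
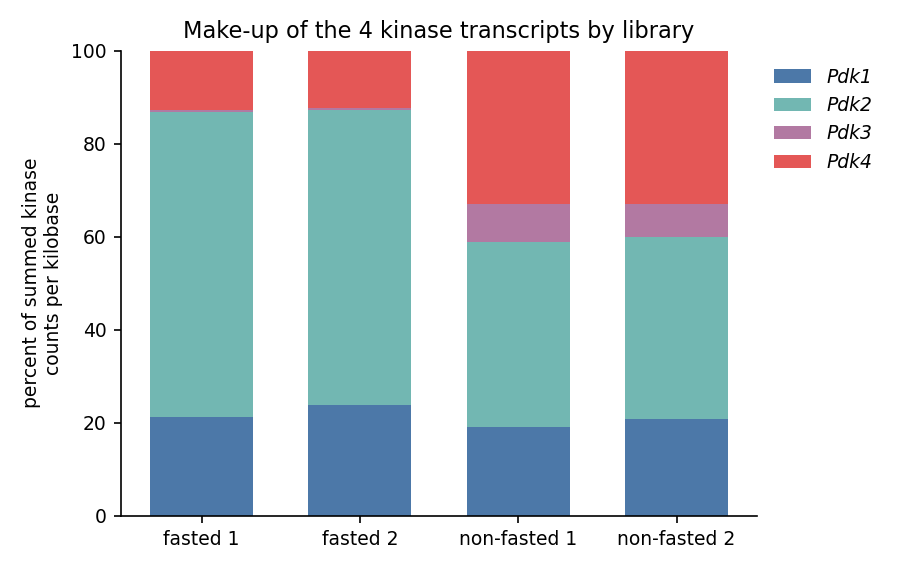
Stacked bars of the share of each kinase, in percent of the summed counts per kilobase of exon of Pdk1 to Pdk4, for each of the 4 libraries. Pdk4 fills 33.0% of the bar in both non-fasted libraries and 12.6% on average in the fasted ones, where Pdk2 fills 64.5%.

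The phosphatases stood on opposite sides. Pdp1, the calcium-stimulated phosphatase, had 31.4 and 21.7 normalized counts in fasted and 80.2 and 94.0 in non-fasted libraries, from only 16 and 11 raw counts in the fasted libraries. Its fasted libraries were both lower, with a log2 fold change of -1.71 (standard error 0.262), and -3.48 on the hepatocyte scale. Pdp2, the phosphatase that responds to insulin, had 758 and 696 normalized counts in fasted and 250 and 233 in non-fasted libraries. Its fasted libraries were both higher, by 1.59 on the log2 scale (standard error 0.072). On the hepatocyte scale Pdp2 stood at -0.19, inside the range of the hepatocyte markers themselves. Pdp2 was thus the main phosphatase transcript of these livers: the raw counts of Pdp1 were 0.0427 and 0.0325 of those of Pdp2 in fasted and 0.321 and 0.404 in non-fasted libraries.

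Both subunits of the complex were higher in the fasted libraries with the median of ratios and lower on the hepatocyte scale. Pdha1, the E1 alpha subunit that carries the phosphorylation sites, had 3247 and 3045 normalized counts in fasted and 1654 and 1615 in non-fasted libraries. Dlat, the E2 core that transfers the acetyl group, had 921 and 1051 normalized counts in fasted and 721 and 689 in non-fasted libraries. In both genes the fasted libraries were the higher ones, by 0.94 (standard error 0.037) for Pdha1 and 0.48 (standard error 0.061) for Dlat on the log2 scale. On the hepatocyte scale they stood at -0.84 and -1.30, and with total counts alone Dlat stood at -0.021.

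Both subunits of the pyruvate carrier were higher in the fasted libraries with the median of ratios. Mpc1 had 1387 and 1341 normalized counts in fasted and 531 and 541 in non-fasted libraries, a log2 fold change of 1.35 (standard error 0.042). Mpc2 had 2811 and 2932 in fasted and 771 and 766 in non-fasted libraries, a log2 fold change of 1.90 (standard error 0.035). The groups overlapped in neither gene. On the hepatocyte scale Mpc1 stood at -0.43, and Mpc2 was the single gene of the 10 above 0, at 0.12. Both values lie inside the range of the hepatocyte markers themselves, -0.65 to 0.49. Within a library, Mpc2 exceeded Mpc1 by 2.03 and 2.19 times in raw counts in the fasted and by 1.45 and 1.42 times in the non-fasted libraries.

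By edgeR's quasi-likelihood test with Benjamini-Hochberg adjustment, 7 of the 10 genes were called higher in the fasted libraries and 3 lower. Of all 15470 genes tested, 37.2% were called higher and 45.0% lower, and since the 10 were selected on this contrast nothing is read from their count. With the coefficient of variation between libraries fixed at 0.4, in place of the 0.0099 estimated here, 2 were called higher and 2 lower, and Pdk4 was not called. Scaled to the hepatocyte markers, 1 of the 10 was called higher and 9 lower, where 4.49% and 90.3% of all genes were. The median log2 fold change of the 10 genes was 0.84, against -0.13 over all tested genes, and on the hepatocyte scale -0.94 against -1.91. The hepatocyte scale thus moves all genes down together, and the order of the 10 genes among themselves is the same on each scale.

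**Figure D3:**
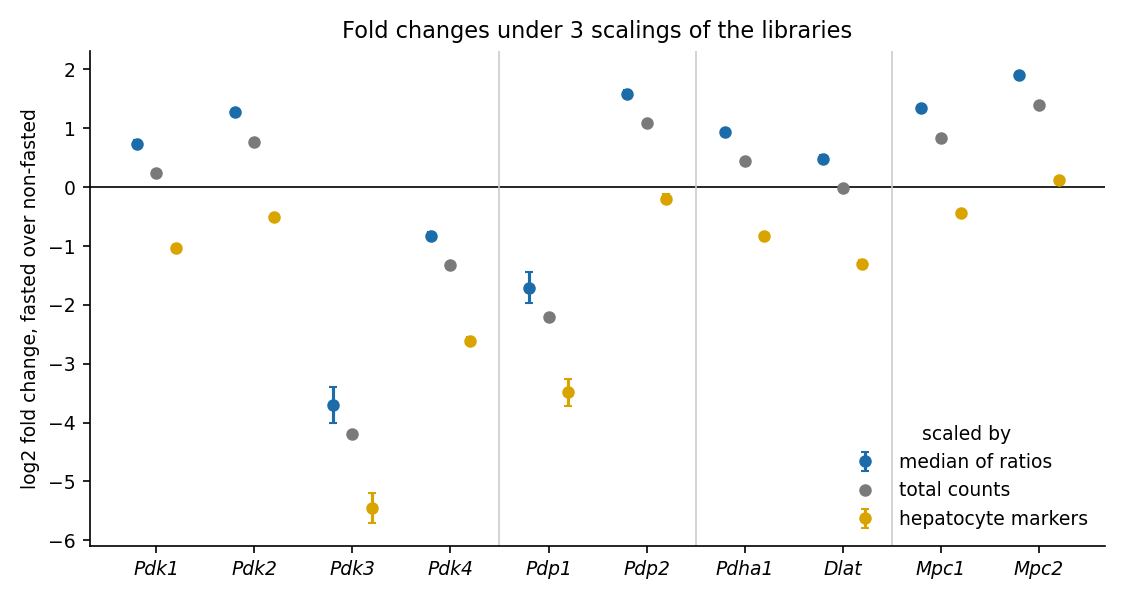
Log2 fold change of the 10 genes, fasted over non-fasted, with the libraries scaled by the median of ratios (blue), total counts (grey) or the hepatocyte markers (yellow). Bars are standard errors, drawn for blue and yellow and mostly smaller than the points. Pdk3, Pdk4 and Pdp1 are below 0 and Mpc2 above 0 on all 3 scales, and the other 6 genes have blue points above 0 and yellow points below it.

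Compared per kilobase of exon, the order of the levels differed between the groups. In the fasted libraries Pdha1 was highest, with 843 normalized counts per kilobase, followed by Mpc1 with 655, Pdk2 with 563 and Mpc2 with 391. Dlat with 202 ± 18.8 and Pdk1 with 197 ± 9.29 (SD, n = 2 each) did not differ beyond their spread, and Pdp2 with 128, Pdk4 with 110, Pdp1 with 5.89 and Pdk3 with 3.46 came last. Pdk4 was thus the eighth of the 10 genes in fasted liver. In the non-fasted libraries it was the fourth, with 195 normalized counts per kilobase, after Pdha1 with 438, Mpc1 with 257 and Pdk2 with 233. There Dlat had 144, Pdk1 118 and Mpc2 105, and Pdk3 with 45.2 ± 3.91 and Pdp2 with 42.5 ± 2.12 did not differ beyond their spread, above Pdp1 with 19.3. Lengths were the union of all annotated exons, so a gene with long rare exons appears lower here than its main transcript would.

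Set against the complex within each library, the regulators split in the same way with no scaling involved. The 2 subunits used as the reference also moved apart. For each count of Pdha1 there were 0.284 and 0.345 of Dlat in fasted and 0.436 and 0.427 in non-fasted libraries. This is a log2 difference of -0.46 (SD 0.201), so the sizes below depend on which subunits stand for the complex. The log2 ratio of Pdk4 to the geometric mean of Pdha1 and Dlat was -2.10 and -2.28 in fasted and -0.68 and -0.62 in non-fasted libraries. Both fasted libraries lay below both others, and the mean difference was -1.54 (SD 0.132). The ratio of Pdk3 differed by -4.28 and that of Pdp1 by -2.40, also without overlap between the groups. On the other side, Pdk2 stood higher against the complex in the fasted libraries by 0.56 (SD 0.113), Pdp2 by 0.88 (SD 0.127), Mpc1 by 0.63 (SD 0.088) and Mpc2 by 1.19 (SD 0.031), again with no overlap. Pdk1 was the exception: its log2 ratios of -0.23 and -0.18 in fasted and -0.32 and -0.14 in non-fasted libraries overlapped, and their difference of 0.031 became -0.062 without non-fasted replicate 1. With 2 against 2 libraries, the exact two-sided permutation test cannot go below p = 0.333, so no test was made of these ratios. A ratio within a library still takes in all RNA of that library, whichever cells it came from.

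**Figure D4:**
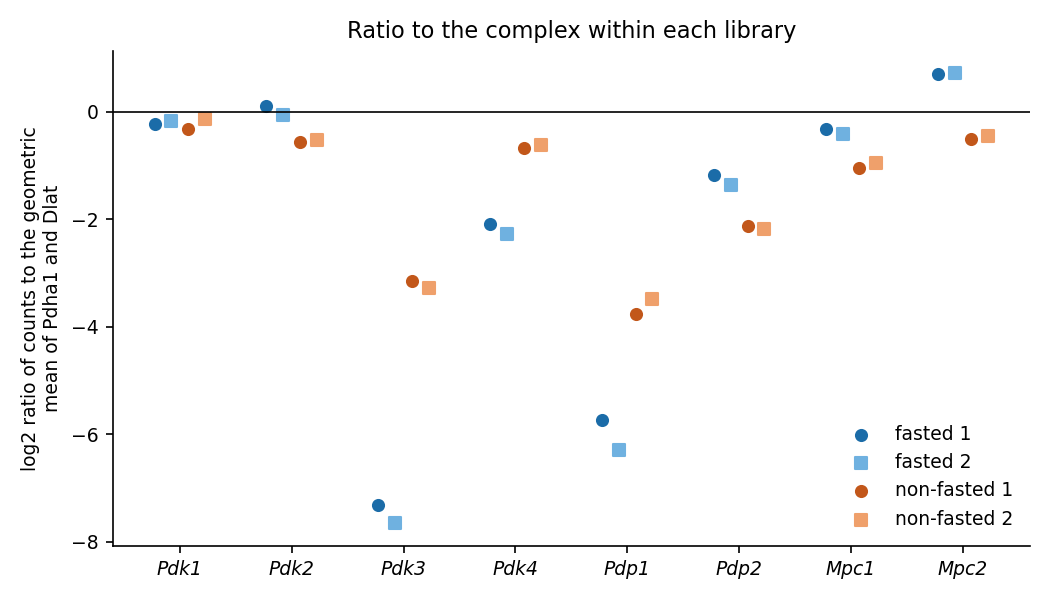
Log2 ratio of the raw counts of each regulator and carrier gene to the geometric mean of Pdha1 and Dlat in the same library, with 1 point per library. Pdk4 lies near -2 in both fasted and above -1 in both non-fasted libraries, Pdk2 and the carrier lie higher in the fasted ones, and Pdk1 overlaps.

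Ratios between single genes showed the shift most directly. Pdk4 had 0.219 and 0.215 raw counts for each count of Pdk2 in the fasted libraries, and 0.920 and 0.934 in the non-fasted libraries, which is 4.27-fold more. For each count of the phosphatase Pdp2 there were 0.532 and 0.530 of Pdk4 in fasted and 2.71 and 2.94 in non-fasted libraries. Pdk2 against Pdp2 differed far less, with 2.43 and 2.46 in fasted and 2.95 and 3.15 in non-fasted libraries. In each of these 3 ratios the groups did not overlap.

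The other genes of the pathway came from lists of 36 genes, all tested in the same fit over all genes. Like the members, these lists were chosen with earlier results of these data known, so their values are a description and carry no p-value. Calls of the listed genes rest on a coefficient of variation of 0.0099 between libraries, and say little about the spread between mice. Of these 36, 26 were called higher and 9 lower in the fasted libraries by edgeR's quasi-likelihood test with Benjamini-Hochberg adjustment. Me1, the cytosolic malic enzyme, did not pass it (log2 fold change 0.06). Me1 was called lower on both other scales, at -0.45 with total counts alone and -1.72 on the hepatocyte scale. Of all 15470 genes tested, 37.2% were called higher and 45.0% lower, and these shares also stand beside the counts of each list below. The median log2 fold change of the 36 genes was 0.80, against -0.13 over all tested genes. On the hepatocyte scale, 6 of the 36 were called higher and 28 lower, where 4.49% and 90.3% of all genes were. These 2 shares stand beside the calls of each list on that scale. The median of the 36 there was -0.98, against -1.91 over all tested genes.

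The remaining subunits of the complex followed Pdha1 and Dlat. All 3 were called higher, with log2 fold changes of 0.68 for the E1 beta subunit Pdhb, 1.03 for the E3 subunit Dld and 1.44 for Pdhx, which binds E3 to the core. All 4 genes of phosphatase regulation and lipoylation were called higher as well, from 0.55 for Lipt2 to 1.19 for the lipoyltransferase Lipt1. All 7 genes of these lists were called lower on the hepatocyte scale, where 90.3% of all genes were. Pdhb stood there at -1.10, Dld at -0.76, Pdhx at -0.35, Lipt2 at -1.23 and Lipt1 at -0.59.

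The other routes of pyruvate, a list of 12, held the widest differences, with 6 genes called higher and 5 lower. Pck1, the rate-limiting enzyme of gluconeogenesis, had 65890 and 65888 normalized counts in fasted and 3233 and 3200 in non-fasted libraries. On the log2 scale it was higher by 4.36 (standard error 0.035), with both fasted libraries above both others. Pck1 was the single gene of this list that was also called higher on the hepatocyte scale, at 2.58. Pcx, which carboxylates pyruvate to oxaloacetate for gluconeogenesis, was called higher with 1.77, and its hepatocyte-scaled difference of -0.011 did not pass the test. Ldha (1.56), the alanine transaminases Gpt (1.54) and Gpt2 (1.63) and the liver pyruvate kinase Pklr (0.40) were called higher too, and lower on the hepatocyte scale (-0.22, -0.24, -0.15 and -1.38). With total counts alone Pklr was called lower as well, at -0.10. The ratio of Pck1 to Pklr in raw counts was 33.4 and 32.6 in fasted and 2.19 and 2.08 in non-fasted libraries.

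Another 5 genes of this list went the other way. Pkm, the pyruvate kinase of muscle and dividing cells, had 214 and 274 normalized counts in fasted and 7312 and 7376 in non-fasted libraries. This put it at -4.91 on the log2 scale (standard error 0.063). Ldhb, the lactate dehydrogenase subunit of heart, was called lower with -3.28, the mitochondrial enzymes Me2 with -2.02 and Pck2 with -2.23. These 4 genes were called lower on the hepatocyte scale too, with Pkm at -6.69, Ldhb at -5.05, Me2 at -3.80 and Pck2 at -4.00. Me3 was called lower on 1 and 0 raw counts in the fasted against 32 and 30 in the non-fasted libraries. These 5 genes stood low in the same libraries as the 14 trophoblast genes and Pdk3, and the part of that RNA in their difference was not tested.

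The branched-chain dehydrogenase is switched by its own kinase, Bckdk, and phosphatase, Ppm1k, and the 2-oxoglutarate dehydrogenase is a related complex without such a pair. Of the 7 genes of both complexes, 6 were called higher and 1 lower. Bckdk was the lower one, with a log2 fold change of -0.37, and Ppm1k was the highest, with 2.22. On the hepatocyte scale Bckdk stood at -2.15, Ppm1k at 0.44 and the E1 beta subunit Bckdhb at 0.19, and these 3 calls kept their direction. The values of Ppm1k and Bckdhb lay inside the range of the hepatocyte markers themselves. The subunits Bckdha (1.73), Dbt (1.57), Ogdh (0.63) and Dlst (1.15) were called higher with the median of ratios. On the hepatocyte scale Dbt (-0.21), Ogdh (-1.15) and Dlst (-0.63) were called lower, and Bckdha (-0.053) did not pass the test. Raw counts of Pdk4 were 1.04 and 0.949 times those of Bckdk in the fasted and 1.38 and 1.36 times in the non-fasted libraries.

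Of 10 transcription regulators known to act on Pdk4, 7 were called higher and 3 lower in the fasted libraries with the median of ratios. Over all genes these shares were 37.2% and 45.0%. On the hepatocyte scale 3 were called higher and 7 lower, where 4.49% and 90.3% of all genes were. With total counts alone, 5 were called higher and 3 lower. Pdk4 itself was lower in the fasted libraries on each of these 3 scales. Ppara, the fatty acid sensor of the fasted liver, had 9960 and 10124 normalized counts in fasted and 1404 and 1352 in non-fasted libraries. The difference was 2.87 on the log2 scale (standard error 0.031) and 1.08 with the hepatocyte markers as the scale, called higher in both. The coactivator Ppargc1a (2.18, hepatocyte scale 0.40) and Hnf4a (2.06, hepatocyte scale 0.28), which also stands in the hepatocyte list, were called higher on both scales. The receptor partner Rxra (1.66), Foxo1 (0.76), the glucocorticoid receptor Nr3c1 (0.54) and Esrra (0.44) were called higher with the median of ratios and lower on the hepatocyte scale (-0.12, -1.02, -1.24 and -1.34). Ppard (-1.96), Foxo3 (-0.48) and Cebpb (-2.32) were called lower on both.

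**Figure D5:**
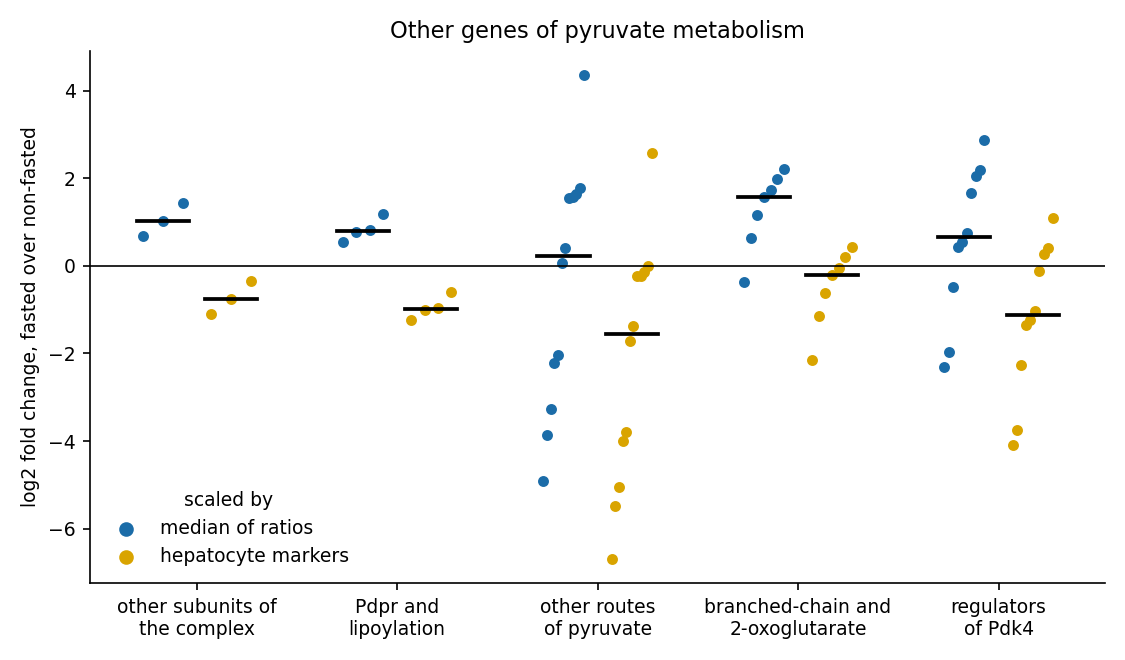
Log2 fold change (positive where fasted is higher) of the 36 other genes of the pathway in 5 lists, scaled by the median of ratios (blue) or the hepatocyte markers (yellow). Each point is a gene and each black line the median of its list. The highest point is Pck1 at 4.36, and the yellow points lie below the blue ones in every list.

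Known responses of liver to fasting were set beside Pdk4 as a check of the labels. Of 12 such genes, 9 were called higher and 3 lower with the median of ratios, where 37.2% and 45.0% of all genes were. On the hepatocyte scale 7 were called higher and 5 lower, where 4.49% and 90.3% of all genes were. Cpt1a, the gatekeeper of fatty acid entry into mitochondria, had 15625 and 15562 normalized counts in fasted and 1931 and 2014 in non-fasted libraries. The lipase inhibitor Angptl4, a target of PPAR alpha like Pdk4, had 4813 and 4766 in fasted and 300.2 and 316 in non-fasted libraries. Their log2 fold changes were 2.98 and 3.96, that of Cyp4a14, a fatty acid hydroxylase, was 7.75, and these 3 genes were called higher on both scales, with 1.20, 2.18 and 5.97 on the hepatocyte scale. Fasn, the fatty acid synthase, was called lower with -1.23, and -3.01 on the hepatocyte scale. Pdk4 was on the other side from these fat-burning genes: its raw counts were 0.0258 and 0.0238 of those of Cpt1a in the fasted libraries and 0.352 and 0.341 in the non-fasted libraries. Against Angptl4 within a library, the difference of Pdk4 between fasted and non-fasted libraries was -4.78 on the log2 scale (SD 0.090).

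The genes whose pattern lay closest to Pdk4 were sought among 8882 others with a mean of at least 10 CPM, by the root mean square distance of centred log2 normalized counts over the 4 libraries. Ckap5, a microtubule protein, was the closest at 0.0066, with 363 and 329 normalized counts in fasted and 610 and 612 in non-fasted libraries. Khdrbs1 followed at 0.0125 and Trim27 at 0.0132, and 391 genes lay within 0.1. With 4 libraries in 2 groups this distance measures little more than the size of the fold change, so many genes share it.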

How the data were processed

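RNA-seq of mouse liver gave 4 libraries, and the deposited files hold raw counts of 27179 genes by Entrez identifier, which the authors left unnormalized. According to the submitters' processing notes, the tools were Trimmomatic, STAR, featureCounts, FastQC, MultiQC and DESeq2 1.32.0 with build GRCm39 (mm39). Settings, strand included, were not given in the sources used here, so reads of genes that overlap on opposite strands may be pooled. Symbols, exon lengths (GENCODE M21) and promoters (RefSeq GRCm38.p6) came from an earlier build, and 1904 identifiers had no symbol.

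Counts were filtered with filterByExpr, scaled by the median of ratios and tested over 15470 genes with edgeR 4.0.16's quasi-likelihood test (two-sided, Benjamini-Hochberg at 0.05) in R 4.3.3. Alternatives used limma 3.58.1, DESeq2 1.42.0, other scalings, filters and fixed coefficients of variation, a replicate block, and leaving out each library. Standard errors were back-calculated from F. Within-library ratios added 0.5 counts. The hepatocyte scale takes the median of ratios over the 15 hepatocyte markers. The code was tested on simulated data. Figures used matplotlib 3.10.9 in Python 3.11.15. Totals were 13528015 to 36975921 counts per library.

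Replicates of a group differed by slightly more than sampling noise, with a chi-square per gene of 1.12 (fasted) and 1.13 (non-fasted), and were kept as 2 libraries. The members and lists were chosen with earlier results of these data known. Named were all members, any gene of the pathway lists, leading markers and fasting controls, and the 3 genes closest to Pdk4. A member of the fasting list is not reported here by name.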

Additional observations from a re-analysis of the deposited data

How the results depend on the processing

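The scaling and the assumed spread changed most. On the hepatocyte scale 1 member was called higher and 9 lower (main values 7 and 3), and 6 and 28 of the 36 other pathway genes (26 and 9). There the log2 fold change turned to -1.04 for Pdk1, -0.51 for Pdk2, -0.19 for Pdp2, -0.84 for Pdha1, -1.30 for Dlat and -0.43 for Mpc1. With that scale and a coefficient of variation fixed at 0.2 as well, an alternative chosen after seeing the data, these 6 values were the same and 0 members were called higher and 6 lower, with 2 and 21 other pathway genes. At a coefficient of variation of 0.4 with the median of ratios, 2 members and 14 other pathway genes were called higher, and Pdk4 was among the 6 members whose call was lost. With a mean of at least 10 CPM, Pdk3 and Pdp1 dropped out by construction, which left 1 member lower and 5 other pathway genes lower. With total counts alone, Dlat stood at -0.021. Against 5 subunits of the complex in place of Pdha1 and Dlat, the difference in the log2 ratio was -0.17 for Pdk1, 0.36 for Pdk2, -1.74 for Pdk4, 0.67 for Pdp2, 0.43 for Mpc1 and 0.99 for Mpc2. Leaving out each library in turn gave -0.062 to 0.12 for the ratio of Pdk1. The cause of these changes was not tested. Replicate numbers did not pair the libraries (correlation of deviations -0.017), and a replicate block gave the same 7 members higher and 3 lower. TMM, DESeq2, limma-voom and leaving out each library kept the direction and call of all 10 members. The libraries of a group differed so little (biological coefficient of variation 0.0099) that p-values say little about the spread between mice. Low depth limits Pdk3 and Pdp1 in the fasted libraries.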
